A study of Mus musculus with 7 samples.

Results

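The mitochondrial genome encodes 13 mRNAs, and 6 of them are described here: those of the cytochrome oxidase core (mt-Co1, mt-Co2 and mt-Co3), of cytochrome b (mt-Cytb) and of the 2 ATP synthase membrane subunits it encodes (mt-Atp6 and mt-Atp8). They were found in a table of 22248 genes by matching each gene identifier, with its version removed, to these symbols. All 6 were matched, each with 1 transcript, and all 6 passed the filter on low counts. The libraries were made from hippocampal synaptoneurosomes, resealed nerve terminals that keep pieces of the postsynaptic side, of wild-type female C57Bl/6J mice. Sub-chronic AM6545 is represented by 4 libraries, replicates B, D, E and F, and vehicle by 3, replicates B, D and E. AM6545 blocks the cannabinoid receptor Cnr1 and enters the brain poorly. The sources used here do not give age, dose, length of treatment or how many mice went into a library. No label says that replicates came from separate animals, so p-values measure the spread between these libraries, which may be technical.

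Mitochondrial DNA is transcribed inside the organelle into long RNAs that are cut at the tRNAs between genes, so most of these mRNAs leave 1 shared precursor and have almost no sequence outside their reading frames. Their products are built into the inner membrane beside subunits that come from nuclear genes. Cytochrome b is the core of complex III, mt-Co1 to mt-Co3 form the catalytic core of complex IV, and mt-Atp6 and mt-Atp8 belong to the membrane part of ATP synthase, complex V. Nerve endings hold many mitochondria, and a synaptoneurosome preparation carries their RNA along.

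Library totals ran from 19174649 to 25894733 estimated counts. All 12 synaptic markers checked, such as Syp, Snap25 and Camk2a, were above 0 in all 7 libraries. Markers of other cell types were present as well. Summed oligodendrocyte markers reached 17176 to 20283 CPM (counts relative to library size, TMM-scaled) in AM6545 and 16887 to 23113 in vehicle, and choroid plexus markers 443 to 2093 and 1648 to 2923. Vehicle replicate B stood apart from the other libraries in every one of the 6 mRNAs, so the fold changes and shares of the 6 are also given without it.

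The arrangement of mt-Atp8, mt-Atp6 and mt-Co3 on the genome is shown first, because it bears on how reads are divided among them. In GENCODE M21, on the build GRCm38, mt-Atp8 lies at chrM:7766-7969, mt-Atp6 at chrM:7927-8607 and mt-Co3 at chrM:8607-9390, all on the plus strand and each a single exon. The submitters' processing notes name the build mm10. The first 2 reading frames overlap by 43 bases, given in capitals below, and the last base of mt-Atp6 is also the first base of mt-Co3. Both ATP synthase proteins are translated from 1 mRNA.
mt-Atp8, whole: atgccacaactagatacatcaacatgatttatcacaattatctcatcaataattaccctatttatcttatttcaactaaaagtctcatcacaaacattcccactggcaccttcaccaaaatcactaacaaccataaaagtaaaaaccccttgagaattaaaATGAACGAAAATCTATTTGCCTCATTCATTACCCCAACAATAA
mt-Atp6, first 60 bases: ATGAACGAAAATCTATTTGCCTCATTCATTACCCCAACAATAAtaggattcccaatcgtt
mt-Atp6, last 30 bases: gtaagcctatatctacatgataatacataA
mt-Co3, first 30 bases: Atgacccaccaaactcatgcatatcacata

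The other members lie on the same strand, with mt-Co1 at chrM:5328-6872 and mt-Co2 at chrM:7013-7696 before mt-Atp8, and mt-Cytb at chrM:14145-15288 beyond mt-Co3. Between mt-Co1 and mt-Co2 there are 140 bases. The ends of the 4 cytochrome mRNAs are printed because they differ in the stop codon, which is in capitals as far as the annotated gene holds it. The reading frames of mt-Co1 and mt-Co2 hold a whole stop codon. Those of mt-Co3 and mt-Cytb end in the first base of one, the rest of which is added by polyadenylation.
mt-Co1, last 30 bases: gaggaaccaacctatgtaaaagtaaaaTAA
mt-Co2, last 30 bases: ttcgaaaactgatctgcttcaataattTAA
mt-Co3, last 30 bases: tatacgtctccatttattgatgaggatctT
mt-Cytb, last 30 bases: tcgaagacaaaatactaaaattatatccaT

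For mt-Co1, mt-Co2, mt-Co3 and mt-Atp6 there are near-identical nuclear copies among the GENCODE M21 transcripts, by a search for at least 95% identity over at least 50% of the length. Gm10925 matches mt-Atp6 at 100% over 99.6% of its length, Gm28661 matches mt-Co2 at 100% over 99.6%, and Gm28437 matches mt-Co3 at 100% over 99.9%. Gm13340 matches mt-Co1 at 97.6% over its whole length, and Gm13341 matches mt-Co2 at 95.9%. These copies were not analysed here, so the levels of mt-Co1, mt-Co2, mt-Co3 and mt-Atp6 are uncertain to the extent that reads were shared with them. Whether counting used strand is not given in the sources used here, so RNA from the opposite strand cannot be told apart.

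Cytochrome oxidase is the last enzyme of the respiratory chain and passes electrons to oxygen. Its largest subunit mRNA, mt-Co1 (ENSMUSG00000064351.1), was at 10921, 11918, 13398 and 11383 CPM in AM6545 replicates B, D, E and F and at 21765, 13355 and 13282 CPM in vehicle replicates B, D and E. Vehicle replicate B was the highest library, and AM6545 replicate E lay just above vehicle replicates D and E, so the groups overlapped. The log2 fold change, AM6545 over vehicle, was -0.44 (SE 0.17; edgeR's quasi-likelihood test, adjusted p = 0.291). Vehicle replicate B was 1.63-fold above the mean of the other vehicle libraries, and without it the log2 fold change was -0.16 (edgeR, adjusted p = 0.882).

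The mRNA of the copper-binding subunit that takes electrons from cytochrome c, mt-Co2 (ENSMUSG00000064354.1), was at 3426, 3609, 4285 and 3598 CPM in AM6545 replicates B, D, E and F. In vehicle replicates B, D and E it was at 7425, 4321 and 4382 CPM. Every AM6545 library lay below every vehicle library, although AM6545 replicate E and vehicle replicate D were close. It was the one mRNA of the 6 whose groups did not overlap, with or without vehicle replicate B. Over all 14654 genes tested, every AM6545 library lay below every vehicle library for 7.19%, and below vehicle replicates D and E for 8.61%. The log2 fold change of mt-Co2 was -0.53 (SE 0.18; edgeR, adjusted p = 0.251), and -0.22 without vehicle replicate B (edgeR, adjusted p = 0.811).

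The mRNA of the third core subunit, mt-Co3 (ENSMUSG00000064358.1), was at 9017, 9528, 11309 and 8896 CPM in AM6545 replicates B, D, E and F and at 18687, 10494 and 11554 CPM in vehicle replicates B, D and E. AM6545 replicate E lay between vehicle replicates D and E. The log2 fold change was -0.49 (SE 0.19; edgeR, adjusted p = 0.277), and -0.18 without vehicle replicate B (edgeR, adjusted p = 0.871).

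Cytochrome b carries the quinone-binding sites of complex III. Its mRNA, mt-Cytb (ENSMUSG00000064370.1), was at 6689.6, 7315, 8556 and 6621 CPM in AM6545 replicates B, D, E and F and at 11939, 7697 and 7959 CPM in vehicle replicates B, D and E. AM6545 replicate E exceeded both vehicle replicates D and E. The log2 fold change was -0.33 (SE 0.17; edgeR, adjusted p = 0.374), the smallest in size of the 6, and -0.10 without vehicle replicate B (edgeR, adjusted p = 0.936).

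The mRNA of the proton channel subunit of ATP synthase, mt-Atp6 (ENSMUSG00000064357.1), was at 8945, 9912, 11625 and 9202 CPM in AM6545 replicates B, D, E and F and at 17529.6, 10445 and 10816 CPM in vehicle replicates B, D and E. As for mt-Cytb, AM6545 replicate E was above vehicle replicates D and E. The log2 fold change was -0.38 (SE 0.18; edgeR, adjusted p = 0.357), and -0.10 without vehicle replicate B (edgeR, adjusted p = 0.937).

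The short accessory subunit mRNA mt-Atp8 (ENSMUSG00000064356.1) was at 63.9, 64.0, 74.6 and 66.3 CPM in AM6545 replicates B, D, E and F. In vehicle replicates B, D and E it was at 119, 80.7 and 73.4 CPM. AM6545 replicate E lay just above vehicle replicate E, the lowest of its group. The log2 fold change was -0.44 (SE 0.15; edgeR, adjusted p = 0.249), and -0.20 without vehicle replicate B (edgeR, adjusted p = 0.785). It rests on 1356 to 2966 counts per library, against 79206 to 184435 for mt-Co2, the next lowest of the 6 in counts.

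**Figure D1:**
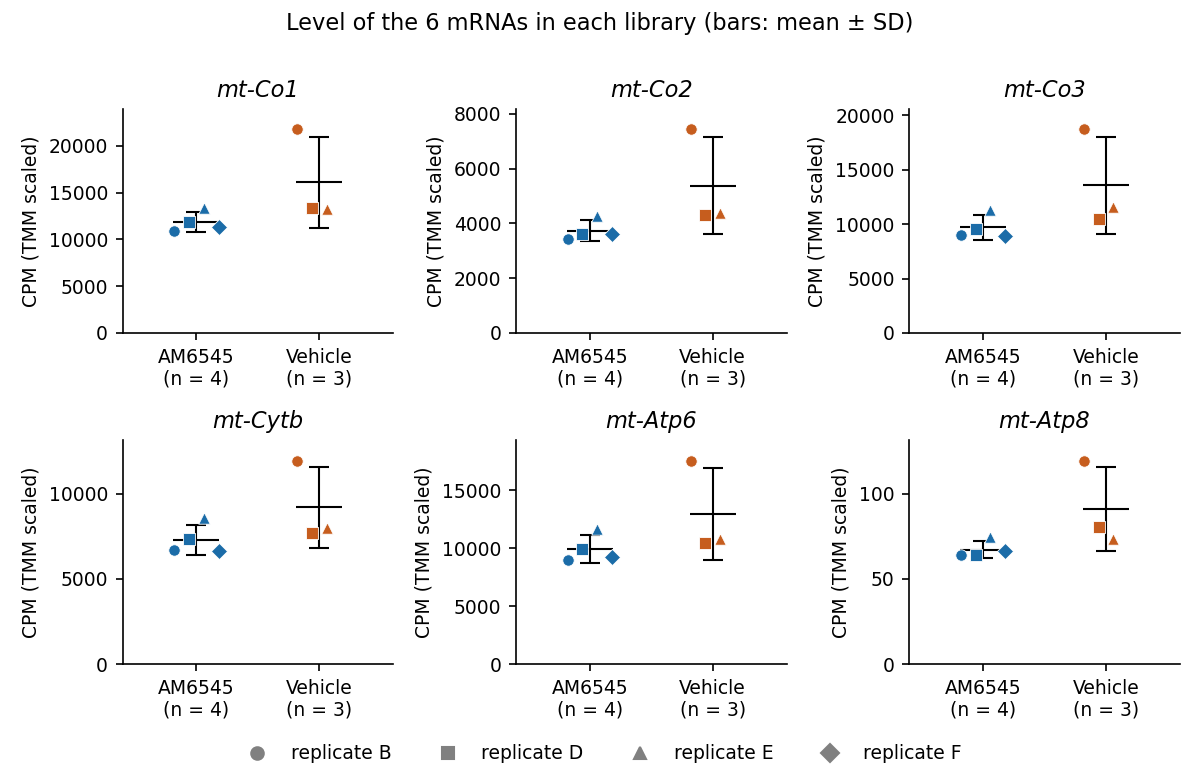
Level of each of the 6 mRNAs (vertical axis, CPM after TMM scaling, from 0) in the 4 AM6545 and 3 vehicle libraries, with the marker shape giving the replicate letter and bars the mean ± SD. Vehicle replicate B is the highest library in all 6 panels and AM6545 replicate E the highest of its group in all 6.

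Of the 6 mRNAs, 0 had a Benjamini-Hochberg adjusted p under 0.05 over all 14654 genes by edgeR, where 0.00682% of genes did. DESeq2 also called 0 of 6 (1.40% of genes) and limma-voom with quality weights 0 of 6 (0.805%). At an unadjusted p under 0.05, 4 of 6 were lower in AM6545 by edgeR (8.70% of genes), 6 of 6 by DESeq2 (8.61%) and 2 of 6 by limma-voom (12.2%). The median log2 fold change of the 6 was -0.44, against 0.01 over all genes tested. All 6 were negative, as were 48.6% of genes tested. In a bulk fraction, fewer mitochondria and less mitochondrial RNA in each cannot be told apart, nor can more RNA from other sources.

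As a share of all gene counts, mt-Co1 took 1.20% ± 0.127 in AM6545 (SD, n = 4) and 1.58% ± 0.440 in vehicle (SD, n = 3). The share of mt-Co2 was 0.377% ± 0.0440 and 0.527% ± 0.161, and that of mt-Co3 0.980% ± 0.126 and 1.33% ± 0.400 (SD, n = 4 and n = 3 here and in the next sentence). The share of mt-Cytb was 0.738% ± 0.101 and 0.903% ± 0.210, that of mt-Atp6 1.004% ± 0.137 and 1.27% ± 0.358, and that of mt-Atp8 0.00679% ± 0.000604 and 0.00896% ± 0.00225. For each mRNA the vehicle SD was over 2 times the AM6545 SD. Single-library shares are precise in counting terms, since no bound of a 95% Wilson interval lay more than 0.00551 percentage points from its share, and such intervals cover counting error only.

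Together the 6 mRNAs took 3.86%, 4.29%, 5.06% and 4.04% of counts in AM6545 replicates B, D, E and F and 7.43%, 4.8% and 4.63% in vehicle replicates B, D and E. AM6545 replicate E was above vehicle replicates D and E. The difference between group means, AM6545 minus vehicle, was -1.31 percentage points with all libraries and -0.41 without vehicle replicate B. For single mRNAs, leaving it out moved the difference from -0.379 to -0.127 percentage points for mt-Co1, from -0.350 to -0.120 for mt-Co3 and from -0.264 to -0.0576 for mt-Atp6. For mt-Co2 it moved from -0.150 to -0.0574, for mt-Cytb from -0.165 to -0.0436 and for mt-Atp8 from -0.00217 to -0.000918. Vehicle replicate B held 46.7% of the 3 vehicle libraries' counts for mt-Cytb and 49.5% for mt-Co2, the lowest and highest of the 6.

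The weight of vehicle replicate B was not the same for every mRNA. Relative to the mean of vehicle replicates D and E, its CPM was 1.71-fold for mt-Co2, 1.70-fold for mt-Co3, 1.65-fold for mt-Atp6, 1.63-fold for mt-Co1, 1.55-fold for mt-Atp8 and 1.53-fold for mt-Cytb. The 7 complex I mRNAs of the same genome ranged from 1.36-fold for mt-Nd4l to 1.95-fold for mt-Nd6, the only mRNA read from the other strand. That library also had the steepest trend of level with GC content, 0.13 on the log2 scale per 10 percentage points. The trend was 0.05 and 0.08 in vehicle replicates D and E and -0.12 to -0.03 in AM6545. With transcript length its trend was -0.09 per doubling, against -0.002 and -0.02 in vehicle replicates D and E and 0.01 to 0.06 in AM6545. Both trends thus differed in sign between the groups, and not in vehicle replicate B alone. The part of these trends in its mitochondrial levels, or in the differences between the groups, was not tested. Fold changes corrected for them are given below.

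**Figure D2:**
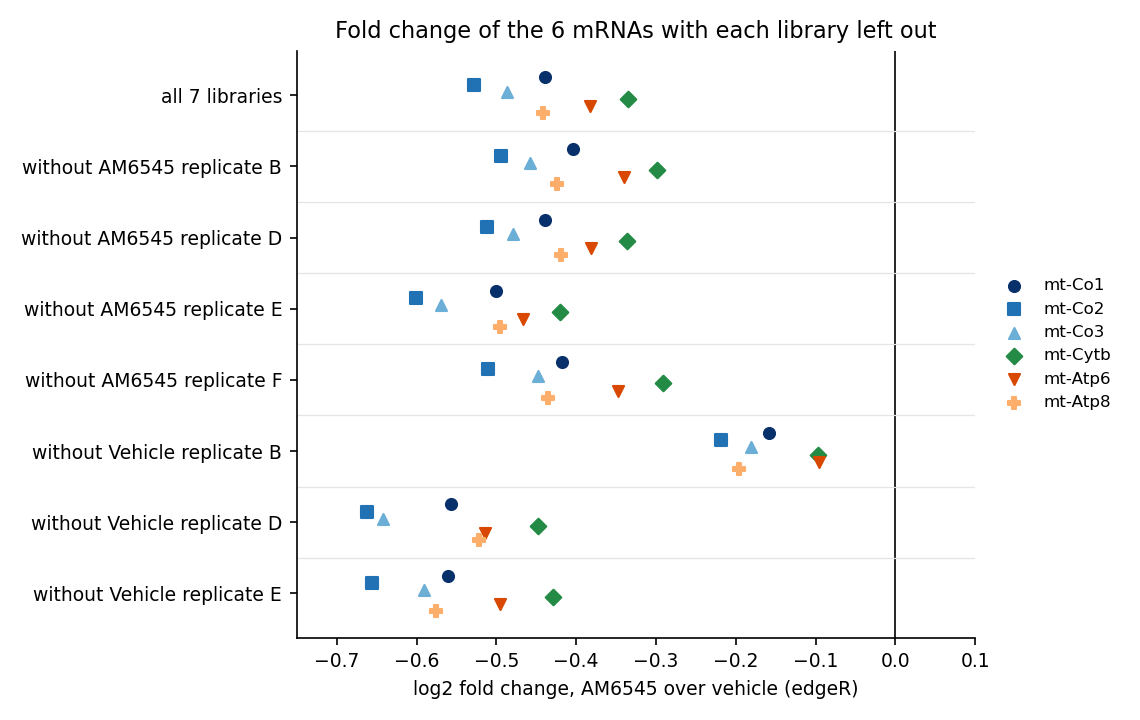
Log2 fold change of each of the 6 mRNAs, AM6545 over vehicle (horizontal axis), in the edgeR fit on all 7 libraries and with each library left out in turn (rows). All points are below 0, and the row without vehicle replicate B is the nearest to 0, from -0.22 for mt-Co2 to -0.10 for mt-Atp6 and mt-Cytb.

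Without vehicle replicate B, 0 of 6 passed by edgeR (0% of genes) and 0 had an unadjusted p under 0.05 (3.69% of genes). Leaving out vehicle replicate D or E, or AM6545 replicate E, moved the values the other way. Without vehicle replicate E, mt-Atp8 had a log2 fold change of -0.58 (edgeR, adjusted p = 0.0320) and mt-Co2 one of -0.66 (adjusted p = 0.0473), so that 2 of 6 passed, where 4.07% of genes did with a lower level in AM6545. In that fit vehicle replicate B is 1 of 2 vehicle libraries. Without vehicle replicate D the 6 log2 fold changes ran from -0.66 for mt-Co2 to -0.45 for mt-Cytb, and 0 passed by edgeR (0.0203% of genes), with 6 at an unadjusted p under 0.05 (7.99% of genes). Without AM6545 replicate E, the highest of its group, they ran from -0.60 for mt-Co2 to -0.42 for mt-Cytb, again with 0 past the threshold (0% of genes) and 6 at an unadjusted p under 0.05 (7.09% of genes). Correcting each library for its trends with GC content and length left -0.53 for mt-Co1, -0.35 for mt-Co2 and mt-Co3, -0.34 for mt-Cytb and -0.22 for mt-Atp6, and turned mt-Atp8 to 0.12 (edgeR, adjusted p = 0.717 to 0.770).

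Within the mitochondrially encoded mRNAs, the proportions moved far less than the level. The 6 members made up 75.4% to 76.1% of the counts of the 13 mRNAs in AM6545 libraries and 75.3% to 75.8% in vehicle libraries. Vehicle replicate B, where the 13 together took 9.83% of counts, was at 75.6%, inside the range of the others. The share of mt-Co1 among the 13 was 21.2% ± 0.406 in AM6545 (SD, n = 4) and 21.3% ± 0.366 in vehicle (SD, n = 3). The share of mt-Co3 was 17.2% ± 0.326 and 17.8% ± 0.695, and that of mt-Atp8 0.12% ± 0.00632 and 0.121% ± 0.00860, with overlap between the groups for all 3.

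For the other 3 members the groups did not overlap in their share of the 13, nor did they for the complex I mRNAs mt-Nd2 and mt-Nd3. These small shifts in share are descriptions without a test, and no figure over all genes tested was computed for this measure. The shares of the 13 in a library add up to a fixed total, so a higher share for some means a lower share for others. For mt-Co2 it was 6.64% ± 0.174 in AM6545 (SD, n = 4) and 7.06% ± 0.174 in vehicle (SD, n = 3). For mt-Cytb it was 12.97% ± 0.257 and 12.2% ± 0.500, and for mt-Atp6 17.6% ± 0.226 and 17.0% ± 0.0833. In these uncorrected counts the share of mt-Co2 was lower in AM6545, with a difference of -0.415 percentage points with all libraries and -0.318 without vehicle replicate B. The share of mt-Cytb was higher by 0.737 and 0.448 percentage points, and that of mt-Atp6 by 0.598 and 0.635, and without vehicle replicate B the groups still did not overlap for these 3. The order changes with the correction for GC content and length given above, where mt-Co1 had the most negative fold change and those of mt-Co2, mt-Co3 and mt-Cytb were nearly equal. By complex, the 3 cytochrome oxidase mRNAs took 58.9% to 60.04% of the counts of the 6 in AM6545 and 60.7% to 61.8% in vehicle, and the ATP synthase pair 23.1% to 23.8% and 22.7% to 22.8%.

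**Figure D3:**
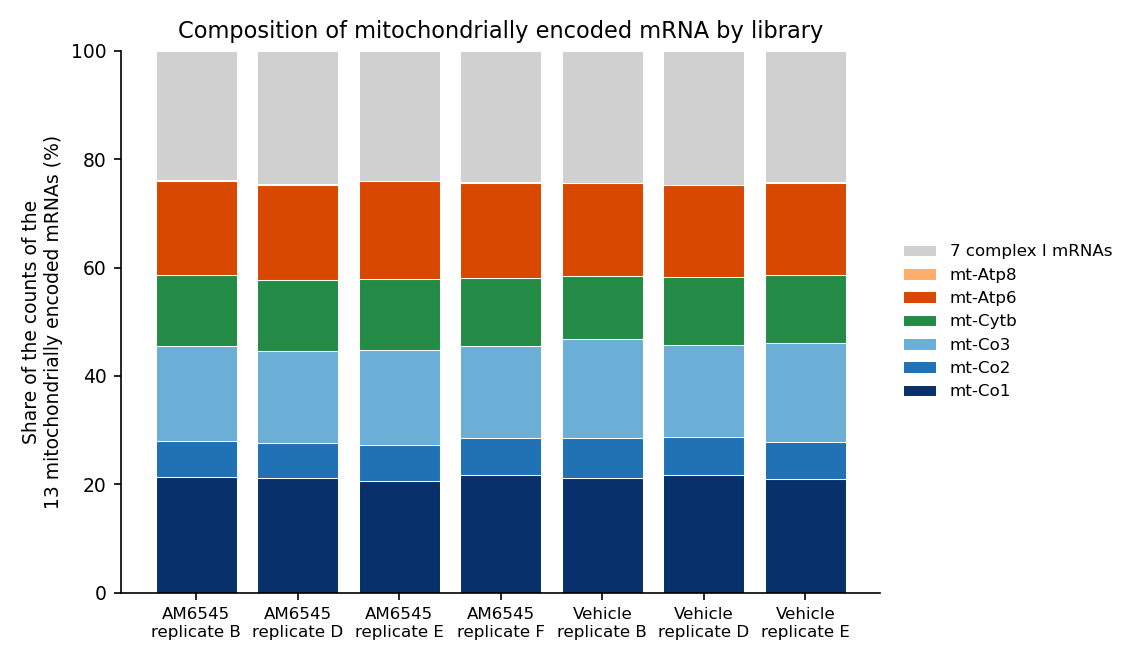
Share of the counts of the 13 mitochondrially encoded mRNAs (vertical axis, percent) taken by each of the 6 members and by the 7 complex I mRNAs together, 1 bar per library. The bars are nearly alike, with the complex I mRNAs near the same share in all 7 libraries, and mt-Atp8, at 0.114% to 0.131%, is too thin to see.

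For ratios between neighbouring mRNAs the test was an exact permutation test of the group means, two-sided, with adjustment over the 3 ratios. The two-sided p used here doubles the smaller tail. Its smallest possible value with 4 against 3 libraries is 0.0571, so the test in this form cannot reach 0.05. The log2 ratio of mt-Co1 to mt-Co2 was 1.67, 1.72, 1.64 and 1.66 in AM6545 replicates B, D, E and F and 1.55, 1.63 and 1.6 in vehicle replicates B, D and E. It was higher in 4 of 4 AM6545 libraries than in any vehicle library, by 0.08 between means (exact permutation p = 0.0571, the smallest possible; adjusted p = 0.171). Without vehicle replicate B that difference was 0.06, and between the fold changes corrected for GC content and length it was -0.19, the opposite direction. The log2 ratio of mt-Atp6 to mt-Co3 was 0.03 ± 0.03 in AM6545 (SD, n = 4) and -0.06 ± 0.05 in vehicle (SD, n = 3; exact permutation p = 0.114, adjusted p = 0.171), with AM6545 replicate B among the vehicle libraries. The difference was 0.10, and 0.08 without vehicle replicate B. The log2 ratio of mt-Atp8 to mt-Atp6, 2 parts of 1 mRNA, was -7.20 ± 0.09 in AM6545 (SD, n = 4) and -7.14 ± 0.11 in vehicle (SD, n = 3), and these overlapped (exact permutation p = 0.4, adjusted p = 0.4). The difference was -0.06, and -0.09 without vehicle replicate B, but 0.33 between the corrected fold changes.

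Levels can be compared between the mRNAs only per length, here CPM per kilobase of annotated transcript. In this unit mt-Atp6 was the highest, at 14569 ± 1773 in AM6545 (SD, n = 4) and 18987 ± 5855 in vehicle (SD, n = 3), and mt-Co3 came next, at 12357 ± 1422 and 17319 ± 5684. Then followed mt-Co1 at 7705 ± 696 and 10443 ± 3156, mt-Cytb at 6377 ± 784 and 8041 ± 2078, and mt-Co2 at 5452 ± 555 and 7859.8 ± 2595 CPM per kilobase. The spread between libraries is shared by all mRNAs, so the order was read within each library. The level of mt-Atp6 exceeded that of mt-Co3 in 7 of 7 libraries, by 1.08-fold to 1.20-fold, mt-Co3 exceeded mt-Co1 in 7 of 7, by 1.54-fold to 1.71-fold, and mt-Co1 exceeded mt-Cytb in 7 of 7. The order of mt-Cytb and mt-Co2 did not hold in every library, with mt-Cytb higher in 6 of 7, vehicle replicate B being the exception at 0.961-fold. Each of these 5 mRNAs was above the highest complex I mRNA, mt-Nd1, in mean level per kilobase (5233 over the 7 libraries, against 6484 for mt-Co2).

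The level of mt-Atp8 stood far below the others, at 329 ± 24.7 CPM per kilobase in AM6545 (SD, n = 4) and 447 ± 121 in vehicle (SD, n = 3). Although both lie on 1 mRNA, mt-Atp6 was at 43.3 times its level per kilobase, with a range of 38.8 to 46.7 over the libraries. With 204 nucleotides mt-Atp8 is the shortest of the 13. The next shortest, mt-Nd4l (297 nucleotides) and mt-Nd3 (348 nucleotides), were also at the bottom, at 301 and 320.4 CPM per kilobase over the 7 libraries, while mt-Nd6 (519 nucleotides) was at 1307. Annotated lengths were used, since effective lengths were not used here, and the part of length in these levels was not tested.

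**Figure D4:**
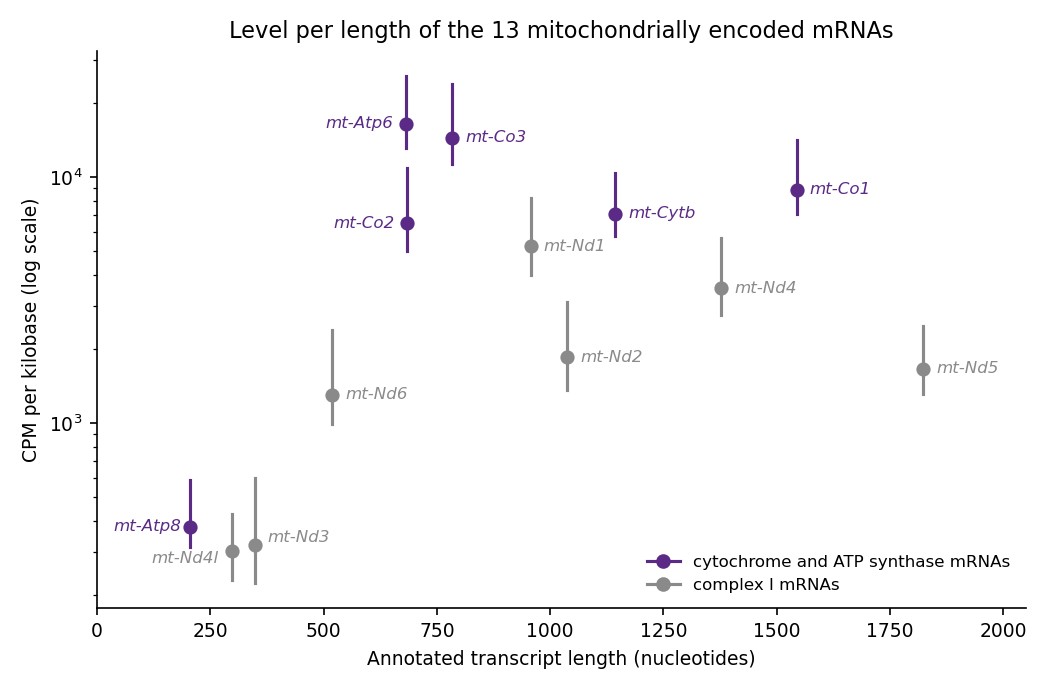
Level per kilobase of the 13 mitochondrially encoded mRNAs (vertical axis, CPM per kilobase, log scale) against annotated transcript length in nucleotides (horizontal axis), with points for the mean of the 7 libraries and bars from the lowest to the highest library. The 3 shortest mRNAs, mt-Atp8, mt-Nd4l and mt-Nd3, lie below all others.

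The complex I mRNAs of the same genome had log2 fold changes of -0.84 to -0.31 (median -0.46), with 0 of 7 past the threshold by edgeR and 6 lower at an unadjusted p under 0.05 (8.70% of genes). Without vehicle replicate B their median was -0.19, and with GC content and length corrected for it was -0.45. Their summed counts moved with those of the 6, which were 3.07 to 3.19 times as many in AM6545 libraries and 3.05 to 3.13 times in vehicle libraries. The 2 with the smallest p were mt-Nd3, at -0.84 (SE 0.19; edgeR, adjusted p = 0.199), and mt-Nd4l, at -0.42 (SE 0.13; adjusted p = 0.231). Without vehicle replicate B they were at -0.51 and -0.25. For 5 of the 7 the groups did not overlap, against 1 of the 6 cytochrome and ATP synthase mRNAs, a difference that was not tested. In these mRNAs every AM6545 library was below every vehicle library, as for 7.19% of all genes tested.

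The nuclear-encoded partners of these subunits were counted by complex. For complex IV, 0 of 11 nuclear subunit genes passed by edgeR, 11 were lower in AM6545 at an unadjusted p under 0.05 (8.70% of genes), and in all 11 every AM6545 library was below every vehicle library (7.19% of genes). Their median log2 fold change was -0.54, and -0.30 without vehicle replicate B. The 2 with the smallest p were Cox8a at -0.69 (SE 0.15; edgeR, adjusted p = 0.199) and Cox6a1 at -0.95 (SE 0.21; adjusted p = 0.199), both small subunits at the rim of the enzyme. Cox8a was at 445, 433, 454 and 483 CPM in AM6545 replicates B, D, E and F and at 962, 616 and 620.3 CPM in vehicle replicates B, D and E, so vehicle replicate B was again the highest library. The level of Cox6a1 was far lower, so its fold change rests on few counts. It was at 5.06, 4.08, 3.10 and 4.22 CPM in AM6545 replicates B, D, E and F. In vehicle replicates B, D and E it was at 10.5, 7.34 and 6.01 CPM. Without vehicle replicate B the log2 fold change was -0.44 for Cox8a and -0.70 for Cox6a1.

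For complex III, 0 of 9 nuclear genes passed by edgeR, 5 were lower at an unadjusted p under 0.05 (8.70% of genes), and the median was -0.39. Of the 9, 3 had a positive log2 fold change, at most 0.11. Uqcr11 had a log2 fold change of -0.61 (SE 0.12; edgeR, adjusted p = 0.199) and Uqcrq one of -0.55 (SE 0.13; adjusted p = 0.199), which were -0.46 and -0.36 without vehicle replicate B. For complex V, 0 of 17 of the 18 listed genes that were tested passed, 12 were lower at an unadjusted p under 0.05 (8.70% of genes), and the median was -0.39. Of the 17, 2 had a positive log2 fold change, at most 0.17. Atp5k, at -0.59, and Atp5j2, at -0.58, had the smallest p (edgeR, adjusted p = 0.199 for both), and were at -0.41 and -0.39 without vehicle replicate B. Without vehicle replicate B the medians of complexes III and V were -0.26 and -0.25. With GC content and length corrected for, the medians became 0.02 for complex III, -0.22 for complex IV and -0.02 for complex V, against -0.34 for the 6 mitochondrially encoded mRNAs.

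Counts of the mitochondrial mRNAs over those of the nuclear subunits of the same complex overlapped between the groups in every complex. The ratio for complex IV was 9.73 to 12.1 in AM6545 libraries and 9.68 to 10.8 in vehicle libraries. For complex III, mt-Cytb over the 9 nuclear genes, it was 2.88 to 4.97 and 3.26 to 5.08, and for complex V 1.27 to 2.29 and 1.49 to 2.80. Vehicle replicate B had the highest ratio of the 7 libraries in complexes III and V (5.08 and 2.80), in complex III close to AM6545 replicate E (4.97). For complex IV, at 10.8, it was the highest vehicle library but below AM6545 replicates D and E (10.9 and 12.1). In vehicle replicate B the nuclear complex IV genes summed to 4442 CPM, against 2911 and 2936 in the other vehicle libraries and 2294 to 2453 in AM6545.

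**Figure D5:**
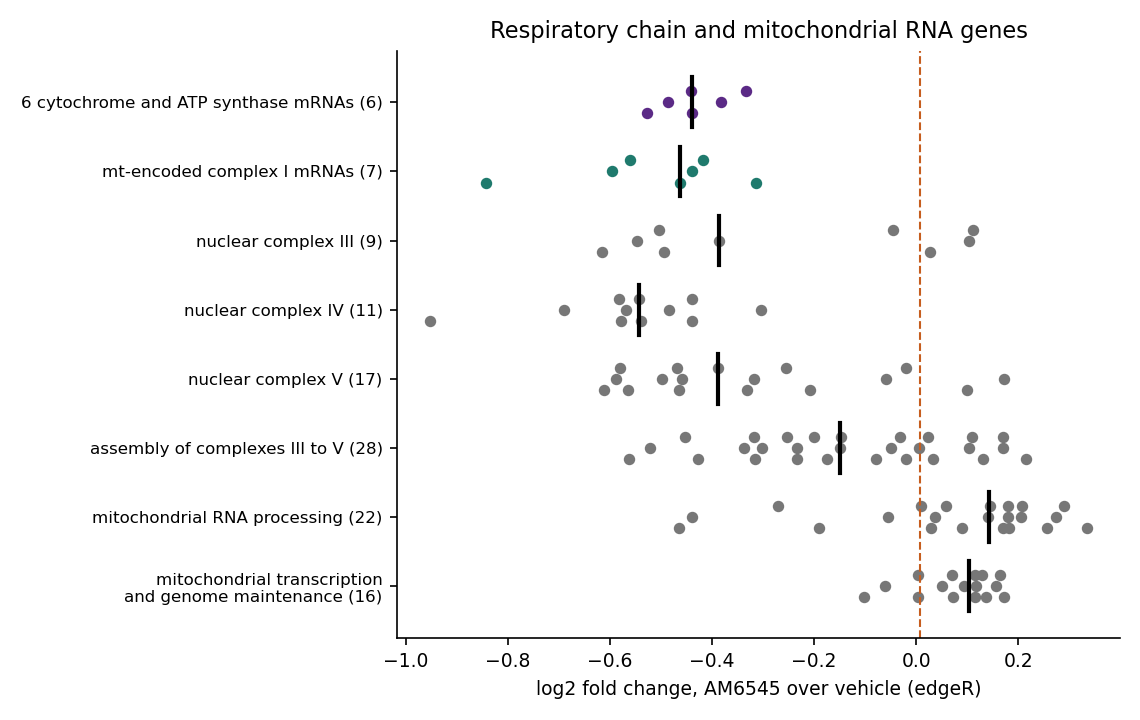
Log2 fold change, AM6545 over vehicle (horizontal axis), of each tested gene in 8 lists (rows, number of genes in parentheses), with a black bar at each list's median and a dashed line at the median of all genes tested, 0.01. The 6 cytochrome and ATP synthase mRNAs, from -0.53 to -0.33, lie within the range of the nuclear complex IV genes, while most genes of mitochondrial transcription and RNA processing are above 0.

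The lists of genes that make and process mitochondrial RNA had medians above 0, with single genes on both sides. Of 16 genes of mitochondrial transcription and genome maintenance, 0 passed by edgeR and 0 had an unadjusted p under 0.05. Their median log2 fold change was 0.10, or 0.07 with GC content and length corrected for. Among them Tfb2m, a transcription factor needed to start transcription of the mitochondrial genome, was at 0.16 (SE 0.10; edgeR, adjusted p = 0.453), and Mterf2 at 0.17 (SE 0.12; adjusted p = 0.494). Of 22 genes of mitochondrial RNA processing and stability, 0 passed by edgeR. At an unadjusted p under 0.05, 2 were lower (8.70% of genes) and 1 higher (859 of 14654 genes). The median of the 22 was 0.14, or 0.07 without vehicle replicate B and 0.03 with GC content and length corrected for. The 2 with the smallest p went opposite ways. Slirp, whose product binds and stabilises mitochondrial mRNAs with Lrpprc, was at 20.1, 17.0, 17.4 and 19.5 CPM in AM6545 replicates B, D, E and F and at 29.3, 24.8 and 22.4 CPM in vehicle replicates B, D and E. Every AM6545 library was below every vehicle library, as for 7.19% of genes tested. The log2 fold change of Slirp was -0.47 (SE 0.12; edgeR, adjusted p = 0.199), and -0.35 without vehicle replicate B. Trmt10c, part of the mitochondrial enzyme that cuts the 5′ ends of tRNAs out of the precursor, was at 0.33 (SE 0.12; edgeR, adjusted p = 0.261), and at 0.23 without vehicle replicate B.

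Of 28 assembly genes of complexes III, IV and V, 0 passed by edgeR, 10 were lower at an unadjusted p under 0.05 (8.70% of genes), and the median was -0.15, or -0.07 without vehicle replicate B. With GC content and length corrected for, that median was -0.02. Uqcc2, a factor for the assembly of cytochrome b into complex III, was at -0.56 (SE 0.14; edgeR, adjusted p = 0.199), and Cox14, a factor for the assembly of cytochrome oxidase, at -0.43 (SE 0.11; adjusted p = 0.199). Without vehicle replicate B they were at -0.35 and -0.29.

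The members resembled each other closely across libraries. Pearson's r of the log2 CPM of each with the mean of the other 5, over 7 libraries, was 0.972 for mt-Atp8 to 0.997 for mt-Co1, and without vehicle replicate B 0.824 to 0.986 for the same mRNAs. These points share library depth and preparation, and r is a description. Among 9601 nuclear-encoded genes with a mean of at least 10 CPM, the 3 most like the mean of the 6 included Rtn1, a reticulon of the endoplasmic reticulum (r 0.991, Spearman's rho 0.857), and Podxl2 (r 0.991, rho 0.857). Leaving out AM6545 replicate B and vehicle replicate B, the 2 libraries farthest from the median, r was 0.942 for Rtn1 and 0.912 for Podxl2. Rtn1 was at 2240.5, 2236, 2415 and 2271 CPM in AM6545 replicates B, D, E and F and at 3089.8, 2392 and 2424 CPM in vehicle replicates B, D and E, and like the members it was highest in vehicle replicate B. Its log2 fold change was -0.20 (SE 0.12; edgeR, adjusted p = 0.439).

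The 12 synaptic markers summed to 10218 to 10717 CPM in AM6545 and 9806 to 9930 CPM in vehicle, without overlap. Of the 12, 5 were lower in AM6545, where 48.6% of genes tested had a negative log2 fold change. The median log2 fold change of the 12 was 0.01, and the 2 at an unadjusted p under 0.05 were lower in AM6545, Shank3 at -0.82 (edgeR, adjusted p = 0.205) and Dlg4 at -0.52 (adjusted p = 0.2998), both named after their values were seen. The 10 microglia markers summed to 1007 to 1097 CPM in AM6545 and to 1334, 1051 and 1336 CPM in vehicle replicates B, D and E, and vehicle replicate D lay within the AM6545 range. Of the 10, 8 were lower in AM6545 (48.6% of genes) and 6 at an unadjusted p under 0.05 (8.70% of genes), with 0 past the threshold by edgeR. For 5 of them every AM6545 library was below every vehicle library (7.19% of genes). The part of the synaptic or microglia markers in the levels of the 6 mRNAs was not tested. The means of all 10 choroid plexus markers were lower in AM6545 (48.6% of genes), with 0 past the threshold by edgeR and 0 at an unadjusted p under 0.05.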

How the data were processed

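The authors deposited estimated counts per gene and per transcript, 1 column per library, not scaled to a common total. Salmon 1.5.2 and the build mm10 are named in the submitters' processing notes; annotation release, filters and use of strand are not given in the sources used here. Fractional values make up 83.5% of the nonzero gene counts. A table of gene names matched 22148 of 22248 gene identifiers without version, and coordinates, lengths and sequences came from GENCODE M21.

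Counts were rounded and fitted with edgeR 4.0.16 (R 4.3.3): TMM scaling, filterByExpr, robust quasi-likelihood fit and no covariates, on all 7 libraries. P-values were Benjamini-Hochberg adjusted over 14654 genes, with a threshold of 0.05. SE is the absolute log2 fold change over the square root of F. Ratios used unrounded counts. Alternatives used DESeq2 1.42.0, limma 3.58.1, other scalings, filters and covariates, and each library left out. Copies were sought with BLAST 2.17.0. The fit was tested on simulated data. The replicate letters were checked for pairing and did not pair libraries.

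Members, lists and tests were chosen with earlier results of these data known. Beside the members, the text names the 2 genes with the smallest p of each list other than the cell type and synaptic marker lists and, of the 3 genes most like the members, 2 (the other is not reported here). Depth, 19174649 to 25894733 counts per library, leaves little counting error beside the spread between libraries.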

Additional observations from a re-analysis of the deposited data

How the results depend on the processing

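The median log2 fold change of the 6 mRNAs stayed negative in all 19 alternatives, from -0.57 without vehicle replicate E to -0.17 without vehicle replicate B. It was -0.40 with scaling by total counts, -0.45 with scaling from nuclear-encoded genes alone and -0.25 with limma-voom. The number past the threshold was 0 under each alternative that kept all libraries, and 0 to 2 with 1 library left out (2 without vehicle replicate E). The log2 fold change of mt-Atp8 turned to 0.12 with the correction for GC content and length and to 0.13 with that correction and the replicate block; for the other 5 it stayed negative in all 19. The difference in summed share was -1.31 percentage points of all counts, -1.80 to -0.41 with 1 library left out, and 0.25 as a share of the 13 mitochondrially encoded mRNAs. The 3 ratios kept their direction with the transcript table, the replicate block and each library left out. The difference for mt-Atp8 to mt-Atp6 was nearly absent without vehicle replicate D, at -0.0009. The tests of the 3 ratios could not pass in any of these settings. The smallest p possible is 0.0571 with all libraries, 0.1 or 0.133 with 1 left out and 0.25 with the block. As differences of fold changes corrected for GC content and length, an alternative chosen after seeing the data, mt-Co1 to mt-Co2 turned to -0.19 and mt-Atp8 to mt-Atp6 to 0.33, and mt-Atp6 to mt-Co3 was 0.14.

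Same-letter libraries did not deviate together (r of -0.26, -0.13 and -0.18 for B, D and E), and no library correlated best with its own letter. With the replicate block 0 of 6 passed (0 unadjusted), the median was -0.39 and the difference in share -1.22. The blocked ratio differences were -0.09 for mt-Atp8 to mt-Atp6, 0.09 for mt-Atp6 to mt-Co3 and 0.09 for mt-Co1 to mt-Co2 (exact sign-flip p = 0.5, 0.25 and 0.25).

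Counting error is small beside the spread between libraries.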
